A study of Homo sapiens with 12 samples.

Results

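The ciliary transition zone genes described here are TMEM231, TMEM237, TMEM216, TCTN1, TCTN2, TCTN3, B9D1, B9D2, MKS1 and CEP290, 10 genes listed by name. They were measured in LNCaP cells, an androgen-responsive prostate carcinoma line grown as an adherent culture. The cells received a synthetic precursor of the microRNA miR-135b or a scrambled precursor as the negative control, each at 20 nM, and total RNA was taken 12, 24 or 36 h later. Each of the 6 combinations of precursor and time had 2 biological repeats, so 12 arrays were read, 6 per precursor, all from this single cell line and with no untransfected culture. All probes annotated to the 10 genes were taken, and a probe was kept where its detection p, the chance of a signal this high from background, was under 0.01 on at least 2 of the 12 arrays. Of 14 probes on the array, 12 probes for 9 genes were kept, out of 19161 kept probes among 47323 and 11238 genes with a kept probe. The group was chosen with earlier results of these arrays in view, because TMEM231 and TMEM237 were known to move in opposite directions. The differences of TMEM231 and TMEM237 between the precursors are therefore given as a description, with no test.

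The transition zone is the stretch at the base of the primary cilium, just above the centriole that anchors it. Y-shaped links there join the microtubules to the membrane and form a gate that decides which proteins enter and stay in the cilium. TMEM231, TMEM237 and TMEM216 are membrane proteins of this gate, the tectonics TCTN1, TCTN2 and TCTN3 assemble with them, B9D1, B9D2 and MKS1 are its B9-domain proteins, and CEP290 is a long coiled-coil protein of the links. Inherited loss of members of this complex causes Joubert and Meckel syndromes, and in mice several of them are needed for Hedgehog signalling. A microRNA pairs with transcripts mainly through its seed, bases 2 to 8, and lowers the transcripts it binds.

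The treated cells received a precursor of miR-135b. The mature sequence miR-135b-5p is shown because its seed sets which transcripts it can pair with. It lies on the minus strand of chr1:205448361-205448383 in RefSeq's GRCh38.p14, and capitals mark the seed.
hsa-miR-135b-5p: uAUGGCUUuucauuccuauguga
Of 2370 mature human microRNA names in the RefSeq table, 2 carry this seed, miR-135b-5p and its family member miR-135a-5p. Pairing sites in the transcripts of the transition zone genes were not analysed here. A probe annotated to the MIR135B gene was detected on 1 of the 12 arrays, and the level of the mature microRNA in the cells was not measured by these arrays.

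The start regions of 4 members are shown because they carry, or lack, the letters of the X-box, the motif bound by RFX factors, which drive many ciliary genes. Each runs from 250 bases before to 50 bases after a start listed by RefSeq for GRCh38.p14, 5′ to 3′ on the gene's strand, with GTTGCC, its complement on the other strand or a spaced pair of such motifs in capitals. The windows are chr16:75556203-75556502 (minus strand) for TMEM231, chr2:201642621-201642920 (minus) for TMEM237, chr12:110613879-110614178 (plus) for TCTN1 and chr10:95693878-95694177 (minus) for TCTN3.
TMEM231: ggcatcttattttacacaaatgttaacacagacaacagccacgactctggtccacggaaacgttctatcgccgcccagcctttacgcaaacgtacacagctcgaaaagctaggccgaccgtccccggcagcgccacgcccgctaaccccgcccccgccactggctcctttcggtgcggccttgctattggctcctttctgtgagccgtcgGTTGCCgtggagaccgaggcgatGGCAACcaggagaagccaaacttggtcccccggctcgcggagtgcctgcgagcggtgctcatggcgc
TMEM237: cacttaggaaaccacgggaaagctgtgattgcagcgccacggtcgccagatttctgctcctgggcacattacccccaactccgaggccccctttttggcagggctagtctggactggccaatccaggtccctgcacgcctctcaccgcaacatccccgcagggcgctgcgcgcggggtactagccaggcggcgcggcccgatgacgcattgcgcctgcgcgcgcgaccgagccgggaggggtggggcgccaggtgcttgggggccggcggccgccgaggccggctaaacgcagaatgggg
TCTN1: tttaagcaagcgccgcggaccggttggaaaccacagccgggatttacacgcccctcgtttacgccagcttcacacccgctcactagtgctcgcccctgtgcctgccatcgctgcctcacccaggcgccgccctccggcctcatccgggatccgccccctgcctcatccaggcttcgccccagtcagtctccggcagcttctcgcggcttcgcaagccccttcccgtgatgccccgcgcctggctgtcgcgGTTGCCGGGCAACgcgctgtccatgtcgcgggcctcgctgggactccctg
TCTN3: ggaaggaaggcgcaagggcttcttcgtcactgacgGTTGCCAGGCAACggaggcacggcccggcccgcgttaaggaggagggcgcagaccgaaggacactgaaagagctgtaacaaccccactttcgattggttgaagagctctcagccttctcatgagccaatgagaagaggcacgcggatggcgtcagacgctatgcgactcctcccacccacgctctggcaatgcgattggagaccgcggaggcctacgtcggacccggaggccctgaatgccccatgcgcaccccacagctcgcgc
Windows were listed for 9 of the 10 genes. GTTGCC on either strand occurred in at least 1 window of 5 of these 9 genes (TMEM231, TCTN1, TCTN3, B9D2 and MKS1) and in 12.2% of all 35116 windows of this length. The spaced pair GTTNCCNGGNAAC, which contains GTTGCC where its N is G, occurred in TCTN1 and TCTN3 and in 0.159% of all windows. The pairs GTTNCCGGNAAC, GTTNCCNNGGNAAC and GTTNCCNNNGGNAAC occurred in 0 of the 9 genes, and any of the 4 pairs occurred in 0.74% of all windows. Neither TMEM237 window held GTTGCC. These matches describe the letters in the windows and say nothing of binding.

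Between 15967 and 17856 probes (33.7% to 37.7%) were detected per array, and repeats of a group correlated at r = 0.979 to 0.989 over the kept probes. The median intensity was 109 to 115 on the 6 arrays of the first repeat and 99.0 to 107 on the 6 of the second, and each repeat held every group. All 12 luminal prostate markers on the array, among them KLK3, TMPRSS2 and KRT8, were detected on 12 of 12 arrays. Of these, 1 fell with miR-135b and 0 rose, beside 2.12% and 1.51% of all 11238 genes with 1 probe each. ACP3, which encodes prostatic acid phosphatase, fell by 0.78 ± 0.12 on the log2 scale over the 3 times (SE, limma adjusted p = 0.00980). The part of ACP3 in the differences of the transition zone genes was not tested. Of the markers of multiciliated epithelium, 1 of 10 on the array (CAPS) was measured and FOXJ1, its master regulator, was detected on 0 arrays. At most 2 genes of each list for basal, fibroblast, leukocyte, endothelial and neuroendocrine cells were measured, and none passed on the probe with the highest mean signal. The 3 probes of the leukocyte marker CD68 disagreed, at -0.10 on that probe (adjusted p = 0.899), -0.44 (0.156) and -0.79 ± 0.10 (0.00377), the last of which passed. In such bulk RNA a change in the share of cells that hold a transcript and a change per cell cannot be told apart.

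TMEM231 was higher and TMEM237 lower in every miR-135b culture than in any scrambled culture. Averaged over the 3 times, the TMEM231 signal was 2.01-fold higher and the TMEM237 signal was 0.537 of the control signal. On the log2 scale, after background correction and quantile normalization, TMEM231 was 7.22 and 6.95 at 12 h, 7.44 and 7.43 at 24 h and 7.44 and 7.64 at 36 h in the miR-135b cultures. In the scrambled cultures TMEM231 was 6.38 and 6.57 at 12 h, 6.30 and 6.55 at 24 h and 6.22 and 6.05 at 36 h. The lowest miR-135b value therefore lay above the highest control value, as it did for 0.924% of all kept probes. The mean log2 difference for TMEM231 was 1.01 ± 0.09 (SE, 6 arrays per precursor), at 0.61 ± 0.16 at 12 h, 1.01 ± 0.16 at 24 h and 1.40 ± 0.16 at 36 h. TMEM231 was a dim probe, at intensities of 135.04 to 279, and its difference over the 3 times was 0.60 both without background correction and on the authors' processed values. The probe is annotated to a non-coding transcript record of TMEM231, and how far it follows the coding transcripts was not tested.

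TMEM237 was 9.78 and 9.72 on the log2 scale at 12 h, 9.36 and 9.34 at 24 h and 9.33 and 9.06 at 36 h in the miR-135b cultures. The scrambled cultures stood at 10.32 and 10.36, then 10.41 and 10.26, then 10.30 and 10.32. The control values spanned a narrow range at all 3 times, while the treated values lay lower at each later time, and the arms did not overlap, as for 1.44% of all kept probes with the treated arm below. The mean log2 difference for TMEM237 was -0.90 ± 0.08 (SE), at -0.59 ± 0.13 at 12 h, -0.99 ± 0.13 at 24 h and -1.12 ± 0.13 at 36 h. Within the first and the second repeat, the mean difference was 1.07 and 0.95 for TMEM231 and -0.85 and -0.94 for TMEM237.

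TMEM216, the third membrane protein, showed no such shift. Its treated values ran from 8.47 to 8.83 and its control values from 8.30 to 8.67, and the arms overlapped. The log2 difference over the 3 times was 0.15 ± 0.09 (SE, limma adjusted p = 0.525), with a 95% interval from -0.06 to 0.35.

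**Figure D1:**
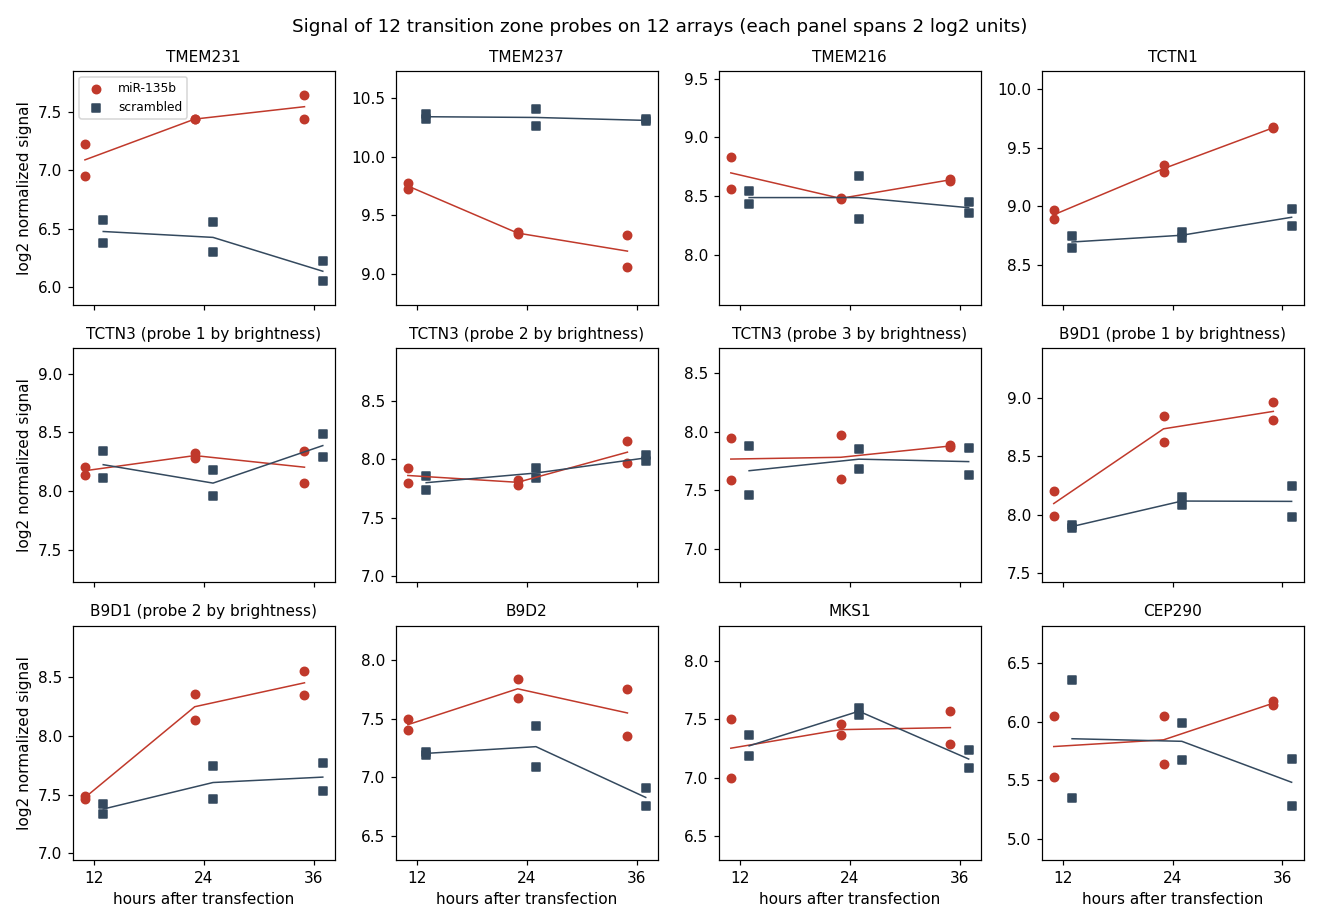
Normalized log2 signal (vertical axis) of the 12 kept probes at 12, 24 and 36 h (horizontal axis, arms drawn slightly apart), with miR-135b cultures as circles, scrambled cultures as squares and lines through the means of 2 repeats. Probes of a gene are numbered by mean signal. TMEM231 lies between 6.95 and 7.64 in treated and between 6.05 and 6.57 in control cultures, while TMEM237 lies between 9.06 and 9.78 in treated and between 10.26 and 10.41 in control cultures.

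Of the other 7 measured genes, TCTN1, B9D1 and B9D2 rose with miR-135b over the 3 times, and none fell. These are the tectonic TCTN1 and 2 of the 3 B9-domain proteins, and their signals rose by 1.40-fold to 1.44-fold. Counting TMEM231 and TMEM237, 5 of 12 probes were up and 1 was down, beside 2.95% of all kept probes called in either direction (1.23% up and 1.72% down). Nothing is read from that share, since the group was chosen on this contrast. The median log2 difference was 0.18 over the 12 probes and 0.01 over all kept probes.

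TCTN1 was 8.96 and 8.89 at 12 h, 9.35 and 9.29 at 24 h and 9.67 and 9.67 at 36 h in the miR-135b cultures. In the scrambled cultures TCTN1 was 8.75 and 8.64, then 8.72 and 8.78, then 8.98 and 8.83. The treated pair lay above the control pair at each time, although the first treated values stood below the highest control value. The share of all kept probes with such separation was not counted. TMEM216, which did not pass, also had its treated pair above its control pair at 12 and 36 h. The log2 difference for TCTN1 over the 3 times was 0.52 ± 0.07 (SE, limma adjusted p = 0.00481), and it was 0.51 within the first repeat and 0.53 within the second. It stayed called whichever of the 12 arrays was left out.

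B9D1 had 2 kept probes, which gave the same picture. On the probe ILMN_3239284 the miR-135b cultures read 8.20 and 7.99 at 12 h, 8.62 and 8.84 at 24 h and 8.96 and 8.81 at 36 h. The scrambled cultures read 7.89 and 7.92, then 8.15 and 8.09, then 8.25 and 7.98. At 12 h the arms lay close together, and at 24 and 36 h both treated values lay above every control value. How many of all kept probes do so was not counted. On the probe ILMN_1781281 the B9D1 values were 7.46, 7.49, 8.14, 8.36, 8.55 and 8.35 with miR-135b and 7.33, 7.42, 7.74, 7.46, 7.77 and 7.53 with the scrambled precursor, in the same order of times and repeats. The differences were 0.53 ± 0.09 (SE, limma adjusted p = 0.0119) and 0.52 ± 0.09 (limma adjusted p = 0.0166). The B9D1 probe ILMN_3239284 stayed called whichever array was left out, while ILMN_1781281 was called in 6 of these 12 fits, with adjusted p up to 0.0616. The call of ILMN_1781281 was lost without the first repeat of miR-135b at 12 h, the second repeat of miR-135b at 12 or 24 h, the first repeat of the control at 12 h, or the second repeat of the control at 24 or 36 h.

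B9D2 was 7.40 and 7.50 at 12 h, 7.84 and 7.67 at 24 h and 7.35 and 7.75 at 36 h in the miR-135b cultures, against 7.19 and 7.22, 7.44 and 7.09, and 6.75 and 6.90 in the controls. Its lowest values were those of the controls at 36 h. The log2 difference for B9D2 was 0.49 ± 0.10 (SE, limma adjusted p = 0.0365), and it was 0.40 within the first repeat and 0.57 within the second. The B9D2 call held in 2 of the 12 fits without 1 array, those without the first repeat of miR-135b at 36 h and of the control at 24 h, with adjusted p up to 0.112 in the rest. The B9D2 call was also lost with median scaling (adjusted p = 0.0619) and with no detection filter (0.0514).

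MKS1, TCTN3 and CEP290 did not pass the test over the 3 times. MKS1, which shares the B9 domain, had intensities of 208 to 269 in treated and 212 to 269 in control cultures, with a log2 difference of 0.03 ± 0.11 (limma adjusted p = 0.952, 95% interval -0.21 to 0.27). With 2 arrays per arm at each time, the MKS1 arms stood in opposite order at 24 and 36 h. At 24 h the treated values 7.46 and 7.36 lay below the control values 7.60 and 7.54. At 36 h the treated values 7.29 and 7.57 lay above 7.09 and 7.23. Neither difference passed by limma, at -0.16 ± 0.18 (SE, adjusted p = 0.884) and 0.27 ± 0.18 (0.702). The 3 kept probes of TCTN3, a tectonic that spans the membrane, differed by 0.00, 0.01 and 0.08, with adjusted p from 0.840 to 0.999. On the TCTN3 probes, treated values ran from 7.59 to 8.34 and control values from 7.46 to 8.48, and the arms overlapped on each. All TCTN3 intervals lay within -0.20 and 0.34. CEP290 was the probe nearest the detection limit, detected on 7 of 12 arrays (4 treated and 3 control), and its difference of 0.21 ± 0.19 (adjusted p = 0.707) had an interval from -0.21 to 0.62. CEP290 was 5.52, 6.05, 5.64, 6.05, 6.14 and 6.18 in the miR-135b cultures and 5.35, 6.36, 5.67, 5.99, 5.28 and 5.68 in the controls, in the order of times and repeats, and both the lowest and the highest value were those of control cultures. Just outside the limit, the sole TCTN2 probe was detected on 1 array, a miR-135b array, and the fourth TCTN3 probe on 0. No difference is given for these 2 probes.

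The differences of TMEM231, TMEM237, TCTN1, B9D1 and B9D2 were larger in size at 36 h than at 12 h. At 12 h no member passed, as for all kept probes (0% called), and 0 of the 10 probes other than TMEM231 and TMEM237 had an unadjusted p under 0.05, beside 4.37% of all probes. At 24 h 0 of these 10 probes passed, beside 0.459% of all kept probes. An unadjusted p under 0.05 was reached by 4 of the 10, beside 9.67% of all kept probes. The leading differences at 24 h were 0.57 for TCTN1 (limma adjusted p = 0.112), 0.62 and 0.65 for the B9D1 probes (0.162 and 0.162) and 0.49 for B9D2 (0.385).

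At 36 h TCTN1 was the 1 of these 10 probes that passed, beside 0.919% of all kept probes, and nothing is read from this share. The TCTN1 difference was 0.76 ± 0.12 (SE, limma adjusted p = 0.0301). This call rested on the full set of arrays, since adjusted p was 0.0518 to 0.236 with 1 of them left out, 0.0814 with median scaling and 0.0525 with detection p under 0.05. The B9D1 probes differed by 0.77 ± 0.15 (adjusted p = 0.0544) and 0.80 ± 0.16 (0.0544), and B9D2 by 0.72 ± 0.18 (0.111). CEP290 stood at 0.68 ± 0.32 (0.484), MKS1 at 0.27 ± 0.18 (0.702) and TMEM216 at 0.24 ± 0.16 (0.686). The median difference at 36 h was 0.47 over the 12 member probes and 0.00 over all kept probes.

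With the treated and control arrays of the same repeat number paired within each time, 4 of the 10 probes other than TMEM231 and TMEM237 passed at 36 h, beside 2.29% of all kept probes. The added calls were the B9D1 probes (limma adjusted p = 0.0390 and 0.0446) and B9D2 (0.0390), while TCTN1 stayed past the threshold (0.0294). At 24 h the paired fit called 0 of the 10, beside 0.892% of all kept probes. Over the 3 times it called 4 of the 10, beside 6.51% of all kept probes.

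The change of the effect with time was itself tested. The 36 h difference minus the 12 h difference was 0.79 ± 0.23 for TMEM231, 0.71 ± 0.22 and 0.57 ± 0.21 for the B9D1 probes ILMN_1781281 and ILMN_3239284, 0.53 ± 0.17 for TCTN1 and -0.52 ± 0.19 for TMEM237. None of the 12 probes and 0 of 19161 kept probes passed by limma (0% called), while 3 of the 10 probes other than TMEM231 and TMEM237, and 933 of all kept probes, had an unadjusted p under 0.05. The moderated F test of any difference between the 3 times also passed for 0 probes (0% called), with 2 of the 10 and 740 of all kept probes at an unadjusted p under 0.05. The later differences were thus not shown to exceed the earlier ones after adjustment.

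**Figure D2:**
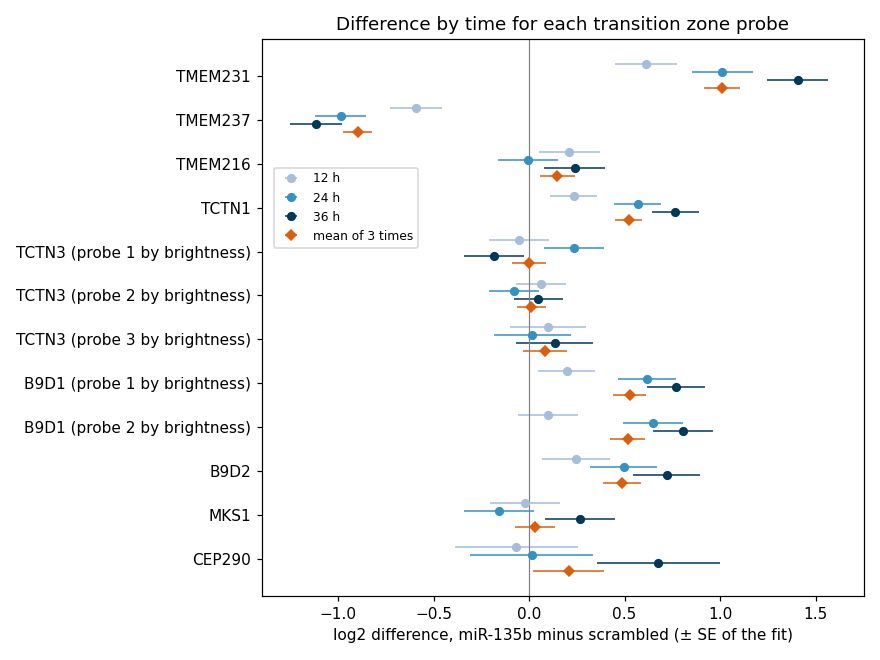
Log2 difference, miR-135b minus scrambled (horizontal axis), of each kept probe at 12, 24 and 36 h (circles) and over the mean of the 3 times (diamonds), with bars of 1 SE of the fit. TMEM231 goes from 0.61 to 1.40 and TMEM237 from -0.59 to -1.12, and TCTN1, B9D1 and B9D2 lie above 0 at each time.

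Within each precursor, the cultures at 36 h were compared with those at 12 h, and no member passed. In the miR-135b cultures, time in culture and length of exposure to the precursor cannot be told apart. In the scrambled cultures 0 of 12 member probes passed between 36 and 12 h, beside 0.0104% of all kept probes, and 0 members had an unadjusted p under 0.05, beside 11.8% of all kept probes. The largest control shifts by size were -0.38 ± 0.18 for B9D2 (limma adjusted p = 0.448), -0.37 ± 0.32 for CEP290 (0.721) and -0.34 ± 0.16 for TMEM231 (0.454). In the miR-135b cultures 0 members passed, beside 0.0678% of all kept probes (0.0418% up and 0.0261% down), and 5 had an unadjusted p under 0.05, beside 14.7% of all kept probes. The B9D1 probes were 0.98 ± 0.16 and 0.79 ± 0.15 higher at 36 than at 12 h (adjusted p = 0.0614 and 0.0742), and TCTN1 was 0.74 ± 0.12 higher (0.0614). TMEM237 was lower at 36 h, at -0.56 ± 0.13 (0.116), and TMEM231 stood at 0.45 ± 0.16 (0.235). TCTN1 and both B9D1 probes passed in this comparison without background correction, with adjusted p of 0.0219 for TCTN1 and of 0.0320 and 0.0248 for ILMN_3239284 and ILMN_1781281.

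The rest of the transition zone, a list of 23 further genes of which 18 were measured, held 1 gene that rose and 0 that fell, with 1 probe per gene. Over all 11238 genes read this way, 1.51% rose and 2.12% fell. AHI1, the Joubert syndrome protein jouberin, rose by 0.49 ± 0.09 (SE, limma adjusted p = 0.0233). The AHI1 call held in 4 of 12 fits without 1 array (those without the second repeat of miR-135b at 12 h, either repeat of miR-135b at 36 h or the second repeat of the control at 12 h), and AHI1 stood at 0.22 without background correction (adjusted p = 0.0746). With repeats paired, 3 of the 18 passed, beside 6.51% of all kept probes called in either direction. The added genes were NPHP4 at 0.30 (limma adjusted p = 0.0404) and NEK8, a kinase of the adjoining inversin segment, at 0.32 (0.0415). A second NPHP4 probe stood at 0.17 and did not pass with pairing (limma adjusted p = 0.169). NPHP4 was called in 2 of 10 alternatives and NEK8 in 1 of 10. Membrane partners of TMEM231 and TMEM237 did not pass: TMEM17 stood at 0.28 ± 0.27, TMEM67, a receptor-like protein of the gate, at 0.27 ± 0.11, TMEM107 at 0.24 ± 0.13, TMEM218 at 0.12 ± 0.08, TMEM80 at 0.07 ± 0.09 and TMEM138 at 0.05 ± 0.08. RPGR, a retinitis pigmentosa gene, stood at 0.44 ± 0.16 (adjusted p = 0.218). CSPP1, TXNDC15 and CC2D2A lay between -0.01 and 0.08. ANKS6, CEP162, IQCB1, INVS and ATXN10 lay between -0.14 and -0.08, and none passed. Other kept probes of IQCB1 (0.33), ATXN10 (0.15) and TMEM80 (-0.07) had the opposite sign, and none of them passed. The list's median was 0.08 beside 0.00 over all genes.

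Among 7 measured of 14 ciliogenesis transcription factors, 1 rose and 0 fell, beside 1.51% and 2.12% of all 11238 genes. E2F5, which like E2F4 acts in the multiciliated cell program, rose by 0.64 ± 0.10 (SE, limma adjusted p = 0.00893). With 1 array left out, the E2F5 difference ran from 0.58 to 0.70. E2F4 stood at -0.30 ± 0.09 (adjusted p = 0.133). MYB, a transcription factor also known from that program, stood at -0.39 ± 0.10 (adjusted p = 0.0900) and at -0.81 at 36 h. Of the RFX factors that bind the X-box, RFX1 stood at 0.28 ± 0.13 (0.371), RFX7 at 0.15 ± 0.13 (0.711), RFX2 at -0.03 ± 0.19 (0.975) and RFX3 at 0.30 ± 0.23 (0.644), the last of which passed with repeats paired (adjusted p = 0.0468). The other 3 kept RFX3 probes stood at 0.14 to 0.52 (adjusted p from 0.0842 to 0.762).

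The lists for the steps around the gate are set beside all 11238 genes, of which 1.51% rose and 2.12% fell. Of 14 measured of 21 genes for basal body docking and cilium assembly, 0 passed in either direction, the nearest being DYNC2LI1, a light intermediate chain of the retrograde transport motor, at 0.44 ± 0.10 (limma adjusted p = 0.0523, and 0.0320 with repeats paired). Of 11 measured of 14 genes for cilium disassembly and capping, 0 passed, with or without pairing, and the median was 0.02. Of 12 measured of 19 genes for ciliary membrane cargo and Hedgehog signalling, 1 rose, RP2, the activator of the GTPase ARL3 that unloads lipidated cargo in the cilium, by 0.82 ± 0.12 (adjusted p = 0.00838). With repeats paired 1 gene of that list also fell, ARL6 at -0.30 (limma adjusted p = 0.0465), beside 6.51% of all kept probes called in either direction. ARL6 was near the detection limit, detected on 4 of 12 arrays, and did not pass without pairing (limma adjusted p = 0.128). It was called in 1 of 9 alternatives, over which its difference ran from -0.30 to -0.12.

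Of 19 measured proliferation genes, 3 fell with miR-135b and 0 rose, beside 2.12% and 1.51% of all 11238 genes. All 19 measured of 20 lay below 0, while 51.1% of all genes lay above 0. The list's median was -0.28 over the 3 times and -0.46 at 36 h. GINS2 and MCM3, parts of the replicative helicase, fell by 0.51 ± 0.08 (SE, limma adjusted p = 0.00892) and by 0.51 ± 0.09 (adjusted p = 0.0180), and CCNE1, which encodes cyclin E1, fell by 0.39 ± 0.08 (0.0356). GINS2 stayed called whichever array was left out. MCM3 stayed called in 6 of these 12 fits, and was lost without the second repeat of miR-135b at 12 or 24 h, the first repeat of the control at 12 h, either control at 24 h or the second at 36 h. CCNE1 stayed called only without the second repeat of miR-135b at 36 h, and was lost with median scaling (adjusted p = 0.168) and with detection p under 0.05 (0.0578). A second CCNE1 probe stood at -0.13 ± 0.22 (adjusted p = 0.874). With repeats paired, 7 of the 19 passed, all lower, beside 6.51% of all kept probes called in either direction. The mean log2 level of the list was 9.51 to 10.16 over the miR-135b arrays and 10.04 to 10.23 over the control arrays. Cilia are resorbed as cells divide, and the part of this shift in the differences of the transition zone genes was not tested.

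**Figure D3:**
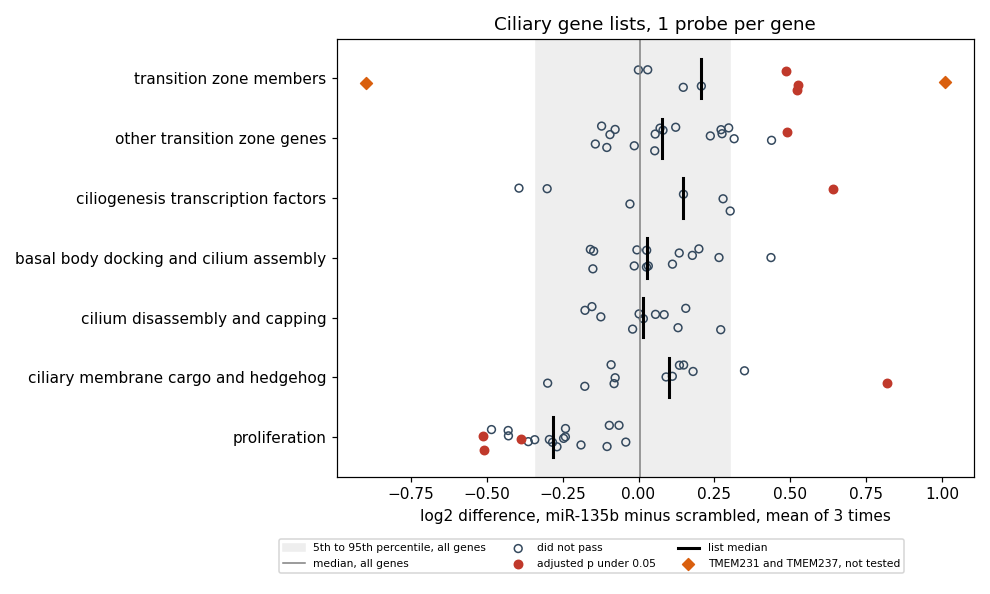
Log2 difference, miR-135b minus scrambled, over the mean of 3 times (horizontal axis) for 1 probe per gene in 7 lists, with filled circles for genes at adjusted p under 0.05, open circles for the rest, diamonds for TMEM231 and TMEM237, bars for list medians and a grey band from -0.34 to 0.30 for the 5th to 95th percentile of all genes. The 9 transition zone members reach from -0.90 to 1.01, while 1 of the 18 other transition zone genes passed.

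Genes with the pattern most like TMEM231 over the 12 arrays, by Pearson correlation among 11237 genes, were CFAP119 (0.97), NARF (0.96), C12orf76 (0.95), KLF9 (0.95) and DNAL4 (0.95). Their differences were 0.96 for CFAP119, a cilia- and flagella-associated protein, 0.84 for NARF, 1.35 for C12orf76, 0.66 for the transcription factor KLF9 and 0.49 for DNAL4, an axonemal dynein light chain. Those most like TMEM237 were RPL36AL (0.98), PGAM4 (0.98), MRPL16 (0.98), TMEM97 (0.97) and SSR2 (0.97), with differences of -0.68, -0.77, -1.09, -0.67 and -0.77. RPL36AL and PGAM4 each have a near-identical relative, and their probes may read both. The likeness is a description over arrays that share both arms, and 41 genes for TMEM231 and 92 for TMEM237 exceeded 0.9.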

How the data were processed

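RNA from 12 cultures was read on Illumina expression arrays. Per the submitters' processing notes, GenomeStudio 2010.2 and lumi 1.8.3 were used. Per the file headers, the deposited first table holds for each array an intensity, on a linear scale and not normalized, with a detection p-value per probe. The deposited second table holds the authors' processed log2 values, whose steps are not given in the sources used here.

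Intensities were background-corrected with normexp (negative controls inferred from the detection p-values, offset 16), quantile-normalized and taken to log2 in limma 3.58.1 (R 4.3.3). Probes with detection p under 0.01 on at least 2 arrays were fitted with 6 group means (6 residual degrees of freedom), empirical Bayes moderation, two-sided tests and Benjamini-Hochberg adjustment over all 19161 kept probes, at a threshold of 0.05. Gene lists used the kept probe with the highest mean per gene. Of 47323 probes, 30113 had 1 name in the platform annotation, 8 several and 17202 none. Genome build and sequences are RefSeq's. The fit was tested on simulated data.

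The members, gene lists and tests were chosen with earlier results of these data known. All 10 genes are accounted for. From the lists and markers, every gene that passed without pairing was named, plus every measured transition zone gene and the 5 genes most like TMEM231 or TMEM237. The transcription factors other than E2F5 were named after their values were seen, and of these RFX3 passed with pairing. DYNC2LI1 and ARL6, which passed with pairing but not in the unpaired fit, were also named after their values were seen. The proliferation genes that passed only with pairing are counted and not named. Same-numbered treated and control arrays deviated together at every time (r = 0.44, 0.44 and 0.55 at 12, 24 and 36 h, all over 0.1). The numbers come from the labels' repeat numbers and were taken to pair these arrays within a time. Alternatives changed the background correction, offset, scaling, detection filter, probe choice and pairing, used the authors' values or left out 1 array. The labels give separate biological repeats but no slide or scan date, and the number of arrays limits the precision.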

Additional observations from a re-analysis of the deposited data

Results flagged for a closer look

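TMEM231 was set aside for a closer look because its time course ran in opposite directions in the 2 arms. From 12 to 36 h it went up by 0.45 on the log2 scale in the miR-135b cultures, with both later values above both earlier ones, and by -0.34 in the scrambled cultures, with both later values below. The difference of these changes, 0.79 ± 0.23 (SE), did not pass in limma (adjusted p = 0.974).

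MKS1 was set aside because the precursor difference had opposite signs at 2 times. It was -0.16 ± 0.18 (SE) at 24 h, with both treated values below both control values, and 0.27 ± 0.18 at 36 h, with both above. Neither difference passed in limma (adjusted p = 0.884 and 0.702). The difference between these 2 times was not tested by itself. The F test over the 3 times did not pass for MKS1 (adjusted p = 1.00).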

How the results depend on the processing

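Over the 3 times, 5 to 6 member probes were called in the 10 alternatives and 4 to 6 without 1 array, beside 6. No called value changed sign. At 12 h, for the 36 h effect minus the 12 h effect, for any difference between times and for the control cells at 36 h against 12 h, 0 members were called in every alternative run. At 24 h (2 called), median scaling left 0, a detection p under 0.05 left 1 and pairing by a replicate block within each time left 1. The counts here include TMEM231 and TMEM237, whose differences between the precursors are a description, so these counts are no test of the group. Of the other 10 probes, 4 were called over the 3 times, 0 at 24 h and 1 at 36 h. At 36 h (3 called), 2 were called with median scaling and 2 with detection p under 0.05, while 5 were called without background correction, with an offset of 50, on the authors' values, with probes detected on all 12 arrays and with the repeat number as a replicate block, and 6 with the replicate block within each time. For miR-135b cells at 36 h against 12 h (0 called), 3 were called without background correction, with an offset of 50, on the authors' values, with probes detected on all 12 arrays and with the replicate block by repeat number, and 2 with 1 probe per gene. Without 1 array, 0 to 2 were called at 24 h (0 without either repeat of either arm at 24 h), 0 to 2 at 36 h (0 without the second repeat of miR-135b or either control at 36 h) and 0 in the other comparisons between times. The count over all kept probes for the 3 times went from 565 to 1248 with the block within each time, and pairing changed no other member call. Why these counts moved was not tested. The 2 arrays per group and, for CEP290, a signal near background limit the precision.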
